A study of Mus musculus with 12 samples.

Results

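The genes described here are the 37 genes of the mouse mitochondrial genome, found by symbols that start with mt-, and 6 nuclear genes, Gm28661, Gm28437, Gm10925, Gm29216, Gm28438 and Gm10222, that look like them. Together they made 43 of the 57054 gene rows, and neither choice used a measured value. The 37 genes comprise 13 mRNA genes, 2 rRNA genes and 22 tRNA genes.

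The samples were myocardial tissue of 10 mice, all wild type, sequenced from the 3′ ends of transcripts in 12 libraries. The first group, called sham vehicle, was 3 mice titled as vehicle-treated and described as sham. The second group, called MI for myocardial infarction, was 3 mice with the left coronary artery ligated. The third, called NECA-treated MI, was 4 infarcted mice that received the adenosine receptor agonist NECA by local delivery into the infarct. The labels give no age, sex, strain or time after ligation. They name neither a vehicle nor a delivery for the MI mice, so an effect of NECA cannot be told apart from one of its delivery, nor an effect of ligation from one of the missing vehicle. Of MI mice 2 and 3 there were 2 libraries each, called 1st and 2nd. The 1st libraries held 30745429 and 27130817 counts against 959840 to 1330259 in the 10 others, were annotated differently and existed in the MI group alone. The 10 libraries with 1 per mouse were therefore compared, and the 1st libraries are given beside them.

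Mitochondria carry a small circular genome. Its mRNAs encode core subunits of 4 enzyme complexes of oxidative phosphorylation, complexes I, III, IV and V, and its rRNAs and tRNAs serve the ribosomes that translate these mRNAs inside the organelle. The genome is transcribed as long RNAs that are cut at the tRNAs, and the mRNAs then receive short poly(A) tails. Heart muscle is rich in mitochondria, so these transcripts are abundant in heart RNA. Pieces of mitochondrial DNA have also been copied into the nuclear genome during evolution, and such copies are called nuclear mitochondrial segments. Where a copy matches its gene base for base, a short read cannot be traced to the copy or to the gene by its sequence.

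The copies were matched to genes by sequence in the GENCODE M21 transcripts, whose genome build is older than that of the files, and coordinates are left out for this reason. All 6 copies lie next to each other on the minus strand of chromosome 1, in the order Gm29216, Gm28661, Gm10925, Gm28437, Gm28438 and Gm10222. Their partners stand in the same order in the mitochondrial genome: mt-Co1, mt-Co2, mt-Atp6, mt-Co3, mt-Nd3 and mt-Nd4l. Gm28661 matched mt-Co2 at 681 of 681 bases, Gm28437 matched mt-Co3 at 783 of 783, Gm10925 matched mt-Atp6 at 678 of 678 and Gm10222 matched mt-Nd4l at 294 of 294. Gm28438 matched mt-Nd3 at 344 of 345 bases, with the substitution T3C. Gm29216 matched the 3′ part of mt-Co1, bases 1063 to 1545 of 1545, at 482 of 483 bases, with the substitution A1066T. In these substitutions the gene's base comes first and positions count from 1 at the 5′ end of the gene's transcript. The 3′ ends are shown because 3′ sequencing reads near them. Capitals mark the bases that the gene's transcript has beyond the end of its copy.
mt-Co2: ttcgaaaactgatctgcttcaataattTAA
Gm28661: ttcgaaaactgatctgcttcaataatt
mt-Co3: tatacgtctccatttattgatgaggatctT
Gm28437: tatacgtctccatttattgatgaggatct
mt-Atp6: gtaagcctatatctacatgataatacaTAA
Gm10925: gtaagcctatatctacatgataataca
mt-Co1: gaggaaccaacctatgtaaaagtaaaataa
Gm29216: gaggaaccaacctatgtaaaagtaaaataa
mt-Nd3: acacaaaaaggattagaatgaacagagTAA
Gm28438: acacaaaaaggattagaatgaacagag
mt-Nd4l: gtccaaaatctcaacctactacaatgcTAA
Gm10222: gtccaaaatctcaacctactacaatgc

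The only differences inside the matched stretches lie near their 5′ ends. They are shown with the mismatched base in capitals, and the first 9 bases of Gm29216 lie before its match.
mt-Co1: ggtctaaccggaAttgttttatcca
Gm29216: ggattggcaggaTttgttttatcca
mt-Nd3: atTaacctgtacactgttatcttca
Gm28438: atCaacctgtacactgttatcttca

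Mitochondrial transcripts with their look-alikes took about 1 count in 3 of each library, and the 3 groups had like shares. The 37 mitochondrial genes took 24.6%, 23.3% and 19.9% of the counts in sham vehicle mice 1 to 3. They took 22.6%, 24.7% and 17.9% in MI mice 1 to 3, and 22.5%, 21.6%, 22.8% and 23.2% in NECA-treated MI mice 1 to 4. The groups overlapped, and the lowest shares belonged to MI mouse 3 and sham vehicle mouse 3. The 6 look-alikes took a further 14.7%, 14.3% and 11.9% in the sham vehicle mice, 13.4%, 14.4% and 14.1% in the MI mice, and 13.2%, 12.6%, 12.9% and 13.3% in the NECA-treated MI mice. The NECA-treated MI mice lay below the MI mice in this share, by a gap smaller than the range inside either group, and inside the sham vehicle range. Sums of genes and copies were 36.2% ± 3.91 (SD, n = 3) in sham vehicle, 35.7% ± 3.55 (SD, n = 3) in MI and 35.5% ± 0.937 (SD, n = 4) in NECA-treated MI. These means differed by less than the spread between mice. The 95% exact binomial interval of any of these shares reached at most 0.097 percentage points to either side, which covers counting error only. In bulk tissue, fewer cells of a type and less RNA per cell cannot be told apart.

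**Figure D1:**
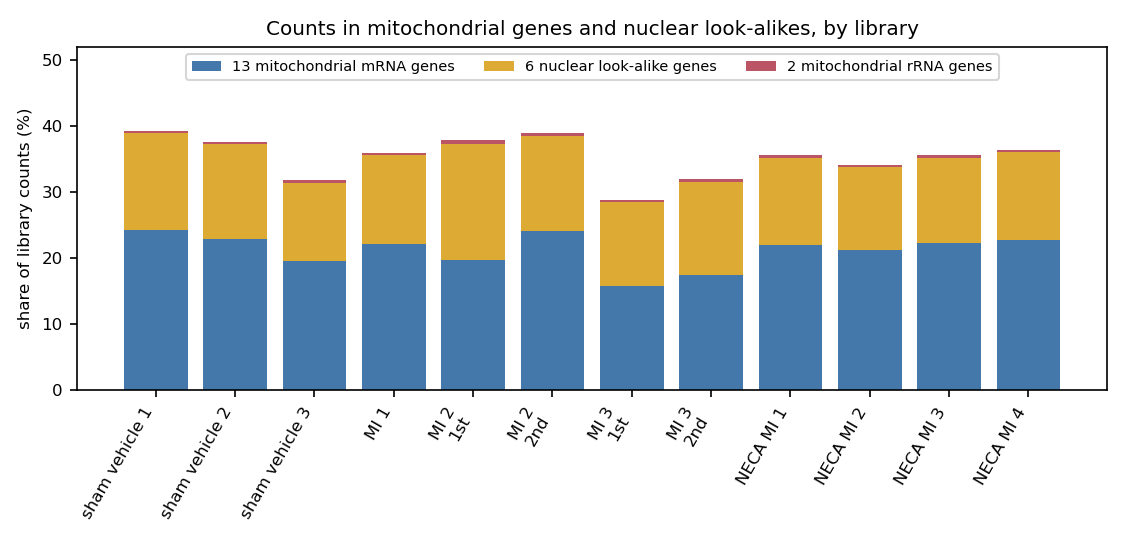
Share of the library's counts (%) in the 13 mitochondrial mRNA genes, the 6 nuclear look-alikes and the 2 mitochondrial rRNA genes, stacked in 1 bar per library. The sums lie between 31.8% and 39.3% in the 10 libraries compared and at 37.9% and 28.9% in the 1st libraries of MI mice 2 and 3.

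The 2 libraries with the lowest sums also stood apart in cell type markers, as did some libraries with higher sums. In sham vehicle mouse 3 the 4 atrial markers summed to 6424 CPM (counts per 1000000 counts of the library), with Nppa at 4008, Myl4 at 1346 and Myl7 at 785, against 120 and 179 in the other sham vehicle mice. Its 3 adipocyte markers summed to 659 CPM, with Cfd at 478, Adipoq at 108 and Plin1 at 73.1, against 0 to 238 in the other 9 libraries. Its 5 erythroid markers summed to 3679 CPM against 731 to 2589 in the other 9 libraries. In MI mouse 3 the atrial markers summed to 3831, all of it Nppa. Myl4, Myl7 and Sln had no count there, so this sum rests on 1 gene and does not show atrial cells. The 7 fibroblast markers of MI mouse 3 summed to 11180 CPM against 547 to 4541 in the other 9 libraries. Its 8 macrophage markers summed to 1020 CPM against 188 to 725 elsewhere, and its 10 cardiomyocyte markers to 49802 against 65123 to 76323. The cardiomyocyte markers did not move as one: Myh6, Actc1, Ttn, Ryr2 and Atp2a2 were the lowest of the 10 libraries. Myl2 was the highest, at 6924 CPM, and Tnnt2, Tnni3, Myl3 and Mybpc3 lay inside the range of the others. Every marker of these 6 lists was detected in at least 1 library, and their part in the shares was not tested. In MI mouse 1 the 4 B cell markers summed to 752 CPM, against 5.26 to 387 in the other 9 libraries. Myh4, a skeletal muscle marker, had 97.9 CPM in NECA-treated MI mouse 4, against 0 to 4.12 in the other 9 libraries. The sums of genes and copies in these 2 libraries were 36.0% and 36.4%. Without sham vehicle mouse 3 the sham vehicle mean of the sums was 38.4%, and without MI mouse 3 the MI mean was 37.5%.

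The 22 tRNA genes had no count in any of the 12 libraries, where 3 counts, the limit that a count of 0 allows, equal 2.26 to 3.13 CPM in the 10 libraries and 0.0976 and 0.111 CPM in the 1st ones. tRNAs are short, here 59 to 75 bases, and carry no poly(A) tail by which a 3′ library is primed. The limit is thus one of counts and does not bound the amount of tRNA in the tissue. The other 21 genes passed the count filter of the test, and each averaged over 10 CPM, so these 21 are described by value.

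How the counts fell between a gene and its copy differed from pair to pair. For mt-Co2, which encodes a core subunit of cytochrome c oxidase (complex IV), 97.9% to 99.7% of the counts of the pair stood under Gm28661 in the 10 libraries. For mt-Atp6, a subunit of the proton channel of ATP synthase (complex V), 94.5% to 97.1% stood under Gm10925. For mt-Nd3, a complex I subunit, 85.0% to 94.96% stood under Gm28438. For mt-Nd4l, another complex I subunit, 49.4% to 76.4% stood under Gm10222. The reverse held for mt-Co1, the catalytic subunit of complex IV, where Gm29216 had 16.7% to 22.5%. Gm29216 is also the only copy whose end matches the end of its gene, as the sequences above show.

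The split of mt-Co3, a further complex IV subunit, had no stable value. mt-Co3 held 3202, 1694 and 3 counts in sham vehicle mice 1 to 3, 2, 3105 and 2 counts in MI mice 1 to 3, and 698, 2, 2 and 2277 counts in NECA-treated MI mice 1 to 4. Libraries with almost no count and libraries with 698 counts or more occurred in every group. Gm28437 took 93.2% to 99.996% of the pair, and the sum of the pair ranged only from 38547 to 46798 CPM, a 1.21-fold range. The coefficient of variation over the 10 libraries was 128% for mt-Co3 and 7.08% for the pair. It was 62.9% for mt-Co2 and 6.70% for its pair, 26.7% and 9.40% for mt-Atp6, 41.8% and 19.9% for mt-Nd3, 30.2% and 19.7% for mt-Nd4l, and 9.25% and 8.32% for mt-Co1. In each pair the sum varied less than the gene alone, so values of these 6 genes are uncertain where they are read without their copies. The copy alone varied less than the sum in the pairs of mt-Co3, mt-Co2 and mt-Atp6 and more in the other 3: 5.87% for Gm28437, 6.56% for Gm28661, 8.93% for Gm10925, 8.54% for Gm29216, 20.8% for Gm28438 and 23.9% for Gm10222. The sums are given beside them below.

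**Figure D2:**
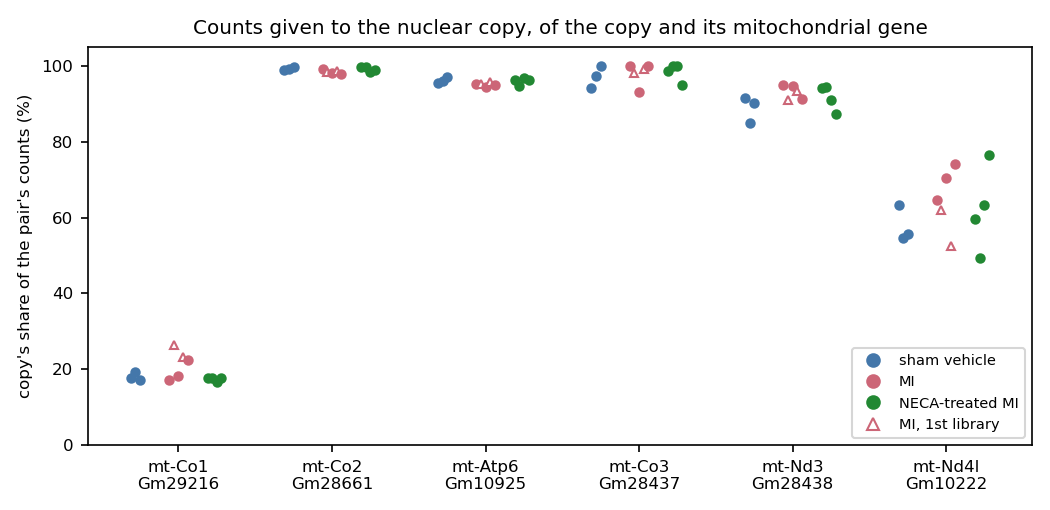
Share of each pair's counts (%) that stood under the nuclear copy, with 1 point per library, coloured by group and open triangles for the 1st libraries of MI mice 2 and 3. The copy holds over 85% in the pairs of mt-Co2, mt-Co3, mt-Atp6 and mt-Nd3, and 16.7% to 22.5% in that of mt-Co1 in the 10 libraries compared.

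The copies' part of the sum of all 43 genes lay between 36.1% and 38.0% in 9 of the 10 libraries. MI mouse 3 stood apart at 44.0%. Its 1st library had 44.1%, while MI mouse 2 had 36.8% in its 2nd and 46.1% in its 1st library. The copy Gm29216 had its highest share among the 10 libraries in MI mouse 3 as well, at 22.5%.

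With each copy added to its gene, the make-up of the mitochondrial counts was alike across libraries. Counts of 3′ ends are read here as shares and not as levels per length. mt-Co1 took 28.8% to 31.5% of the sum, mt-Co3 11.5% to 14.5% and mt-Co2 10.5% to 12.2%, so the 3 complex IV subunits together led in every library. mt-Cytb, the only mitochondrially encoded subunit of complex III, took 9.35% to 9.80%. mt-Atp8 and mt-Atp6, which overlap by 43 bases and share one mRNA, took 8.28% to 10.7%. The pair mt-Nd4l and mt-Nd4, which overlap by 7 bases and also share one mRNA, took 8.74% to 9.64%. Of the other complex I subunits, mt-Nd1 took 5.66% to 7.31%, mt-Nd2 3.07% to 4.82%, mt-Nd5 2.12% to 5.10% and mt-Nd3 0.80% to 1.42%. mt-Nd6, the only mRNA gene of the other strand, took 1.18% to 1.48%. Its transcript overlaps that of mt-Nd5 by 14 bases, and whether strand was used in counting is not given in the sources used here. Among rRNAs, mt-Rnr2 of the large and mt-Rnr1 of the small ribosomal subunit took 0.44% to 0.85% and 0.24% to 0.50%.

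MI mouse 3 accounted for the widest departures. mt-Nd5 took 2.12% of its mitochondrial sum against 3.82% to 5.10% in the other 9 libraries, and mt-Nd2 took 3.07% against 3.88% to 4.82%. Its 1st library gave 2.24% and 3.06%, so both of its libraries were low in these 2 genes. The 1st library of MI mouse 2 was also low in mt-Nd5, at 2.52%, but had 4.15% for mt-Nd2. In MI mouse 3 the shares of mt-Co3, mt-Co2 and the mt-Atp8 and mt-Atp6 pair were the highest of the 10 libraries, at 14.5%, 12.2% and 10.7%.

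**Figure D3:**
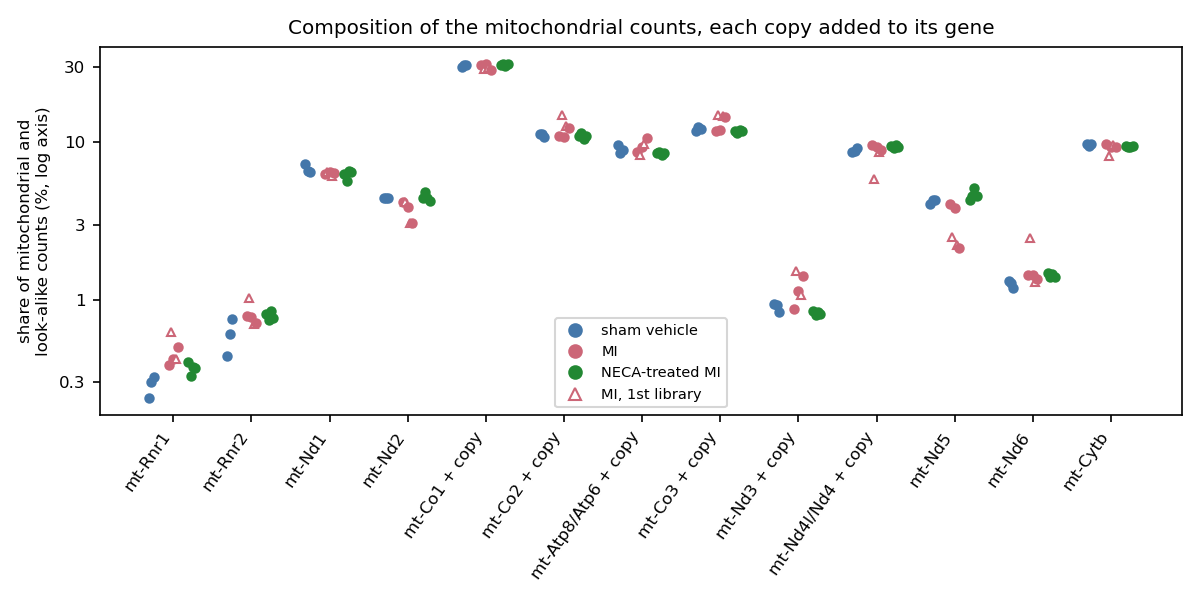
Share of the mitochondrial and look-alike counts (%, log axis) held by each mitochondrial transcript with its copy, in the order of the genome, with 1 point per library coloured by group and open triangles for the 1st libraries of MI mice 2 and 3. mt-Co1 leads at 28.8% to 31.5%, and MI mouse 3 has the lowest points of mt-Nd2 and mt-Nd5. The 1st library of MI mouse 2 is also low in mt-Nd5, at 2.52%.

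Infarction was compared with sham surgery first. Of the 21 genes, 0 passed the test for MI minus sham vehicle, where 0.0736% of all 9505 tested genes did (edgeR's quasi-likelihood test, Benjamini-Hochberg adjusted p under 0.05). At an unadjusted p under 0.05 there was 1 of the 21, against 12% of all tested genes. The log2 fold changes had a median of -0.08 over the 21 genes and -0.01 over all tested genes. Of the 21 values 7 were above 0, as were 49.1% of those of all tested genes, and 11 were above 0 with library totals in place of the scaling by trimmed mean of M values (TMM). Library totals also moved the median over all tested genes to 0.07. The groups did not overlap for 2 of the 21, or 9.52%, where 14.3% of all tested genes had groups that did not overlap, 7.13% with MI higher and 7.13% with MI lower. The count for the mitochondrial genes was thus no higher than the background.

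The gene of smallest p was mt-Rnr1, the rRNA of the small mitochondrial ribosomal subunit. It had 933, 1123 and 1022 CPM in sham vehicle mice 1 to 3 and 1394, 1645 and 1597 CPM in MI mice 1 to 3. It had 1431, 1124, 1326 and 1350 CPM in NECA-treated MI mice 1 to 4. By these library totals every MI mouse lay above every sham vehicle mouse, and NECA-treated MI mouse 2 exceeded the highest of them by less than 1 CPM. After TMM scaling, as used in the test, NECA-treated MI mouse 2 had 1065 CPM and lay below sham vehicle mouse 2 with 1204, while MI and sham vehicle still did not overlap. The log2 fold change of MI minus sham vehicle was 0.51 ± 0.18 (SE) and did not pass the test (edgeR adjusted p = 0.281). Over the alternatives the value ranged from 0.40 to 0.65 and its adjusted p from 0.0753 to 0.570. The value for NECA-treated MI minus sham vehicle was 0.29 ± 0.17 (edgeR adjusted p = 0.839).

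mt-Rnr2, the rRNA of the large subunit, had 1731, 2291 and 2393 CPM in sham vehicle, 2820, 3043 and 2289 CPM in MI, and 2912, 2560, 3015 and 2772 CPM in NECA-treated MI mice. Here MI mouse 3 fell among the sham vehicle mice. The log2 fold change was 0.29 ± 0.19 for MI and 0.34 ± 0.18 for NECA-treated MI minus sham vehicle, and neither passed (edgeR adjusted p = 0.568 and 0.837). Both rRNAs together took 0.266%, 0.341% and 0.341% of the counts in the sham vehicle mice. In the MI mice they took 0.421%, 0.469% and 0.389%, and in the NECA-treated MI mice 0.434%, 0.368%, 0.434% and 0.412%. As shares of library totals, all 7 infarcted mice lay above all 3 sham vehicle mice in this sum, which was looked at after its values were seen. After TMM scaling the groups overlapped: sham vehicle mouse 2 had 3660 CPM, above MI mouse 3 with 3449 and NECA-treated MI mouse 2 with 3492. The deep 1st library of MI mouse 3 had 0.324%, inside the sham vehicle range, while that of MI mouse 2 had 0.626%, above every sham vehicle mouse.

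Among complex I subunits, mt-Nd4l was the other gene whose groups did not overlap. It had 1370, 1366 and 1286 CPM in sham vehicle and 1062, 1002 and 387 CPM in MI mice, and 1271, 1587, 1229 and 800 CPM in NECA-treated MI mice. MI mouse 3 was lowest. The log2 fold change of MI minus sham vehicle was -0.77 ± 0.38 (edgeR adjusted p = 0.453), and with the copy Gm10222 added it was -0.35 ± 0.28 (edgeR adjusted p = 0.650). Without MI mouse 3 it was -0.40 ± 0.19 for mt-Nd4l alone, and with the 1st and 2nd libraries summed it was -1.09 ± 0.31 (edgeR adjusted p = 0.138). Gm10222 alone gave -0.12 ± 0.34, and -0.90 ± 0.42 with the libraries summed (edgeR adjusted p = 0.923 and 0.339).

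mt-Nd5 and mt-Nd2 showed what 1 mouse did to a group value. mt-Nd5 had 16018, 16152 and 13603 CPM in sham vehicle, 14687, 14917 and 6775 CPM in MI, and 15386, 15552, 18178 and 16511 CPM in NECA-treated MI mice. MI mouse 3 lay below every other mouse. The log2 fold change of MI minus sham vehicle was -0.39 ± 0.28 with it and -0.07 ± 0.17 without it, and that of NECA-treated MI minus MI was 0.42 ± 0.26 and 0.10 ± 0.17. mt-Nd2 went from -0.34 ± 0.22 to -0.11 ± 0.17 and from 0.25 ± 0.20 to 0.02 ± 0.16 in the same comparisons. None of these values passed the test (edgeR adjusted p at least 0.541 with all mice). With the 1st and 2nd libraries summed, mt-Nd5 gave -0.64 ± 0.29 and 0.67 ± 0.27 in the 2 comparisons, and neither passed (edgeR adjusted p = 0.307 and 0.397). mt-Nd1 gave -0.21 ± 0.21, mt-Nd4 -0.0035 ± 0.19 and mt-Nd6 0.05 ± 0.21 for MI minus sham vehicle, each within its standard error.

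The sign of the difference in mt-Nd3 depended on its copy. It had 309, 521 and 261 CPM in sham vehicle and 159, 231 and 389 CPM in MI mice, and the groups overlapped. The log2 fold change of MI minus sham vehicle was -0.62 ± 0.48 for mt-Nd3 alone and 0.21 ± 0.21 with Gm28438 added, and neither passed (edgeR adjusted p = 0.650 and 0.718).

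In the 10 libraries, differences of the subunits of complexes III, IV and V were within their standard errors once the copies were added. mt-Cytb had a log2 fold change of -0.13 ± 0.20 for MI minus sham vehicle. mt-Co1 had 97339, 94346 and 81228 CPM in sham vehicle and 92266, 100046 and 71286 CPM in MI mice, and a log2 fold change of -0.13 ± 0.21. mt-Co2 alone gave 0.88 ± 0.82 and mt-Co3 alone -0.39 ± 2.89, and with their copies they gave -0.09 ± 0.20 and -0.04 ± 0.19. mt-Atp6 gave 0.31 ± 0.27 alone and -0.05 ± 0.20 with Gm10925. mt-Atp8, which has no copy among the 6, gave 0.18 ± 0.26. The adjusted p of these genes was at least 0.686 by edgeR, alone or with their copies. The value of mt-Atp8 turned with the libraries used. It was -0.92 ± 0.28 with the 1st and 2nd libraries of MI mice 2 and 3 summed (edgeR adjusted p = 0.148) and -0.97 ± 0.30 with the 1st in place of the 2nd (edgeR adjusted p = 0.149).

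NECA treatment was compared with untreated infarction next. Of the 21 genes 0 passed the test for NECA-treated MI minus MI, and 0% of all 9505 tested genes did (edgeR). At an unadjusted p under 0.05 there was 1 of the 21, against 6.07% of all tested genes. The median log2 fold change was -0.03 over the 21 genes and -0.01 over all tested genes, with 7 of the 21 above 0, against 48.6% of all. Groups did not overlap for 2 of the 21, or 9.52%, against 7.49% of all tested genes.

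Both of these lay lower in NECA-treated MI, as did 3.61% of all tested genes without overlap, and both belong to a pair. Gm28438, the copy of mt-Nd3, had 2996, 4238 and 4136 CPM in MI mice 1 to 3 and 2847, 2588, 2698 and 2588 CPM in NECA-treated MI mice 1 to 4. Sham vehicle mice had 3386, 2956 and 2405 CPM and overlapped with both. The log2 fold change was -0.48 ± 0.19 and did not pass (edgeR adjusted p = 0.793), and for mt-Nd3 with Gm28438 it was -0.46 ± 0.19 (edgeR adjusted p = 0.797). mt-Nd3 with its copy took 0.88%, 1.14% and 1.42% of the mitochondrial sum in MI mice 1 to 3, 0.85%, 0.80%, 0.83% and 0.81% in NECA-treated MI mice, and 0.94%, 0.92% and 0.84% in sham vehicle mice.

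mt-Atp6 had 1350, 1764 and 1611 CPM in MI mice and 1042, 1378, 833 and 1080 CPM in NECA-treated MI mice by library totals, where NECA-treated MI mouse 2 reached into the MI range. After TMM scaling the groups did not overlap, and the log2 fold change was -0.53 ± 0.25 (edgeR adjusted p = 0.818). With Gm10925 added it was -0.16 ± 0.18. mt-Nd4l gave 0.55 ± 0.36 alone and 0.29 ± 0.26 with its copy. mt-Co2 gave -0.95 ± 0.76 alone and -0.04 ± 0.18 with Gm28661. For mt-Co1, mt-Cytb, mt-Nd1, mt-Nd4, mt-Nd6, mt-Atp8 and mt-Rnr2 the difference was within its standard error, and for mt-Rnr1 it was -0.22 ± 0.17. With the 1st and 2nd libraries of MI mice 2 and 3 summed, mt-Atp8 went from -0.09 ± 0.24 to 1.01 ± 0.27 (edgeR adjusted p = 0.286), mt-Nd4 to 0.26 ± 0.22 (edgeR adjusted p = 0.696) and mt-Nd4l to 0.88 ± 0.30 (edgeR adjusted p = 0.334). Gm10222 went from 0.16 ± 0.32 to 0.94 ± 0.40 (edgeR adjusted p = 0.429). In the 10 libraries mt-Atp8 and mt-Nd4 thus had no direction, and one appeared only where the 1st libraries of the MI mice were used.

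For NECA-treated MI minus sham vehicle, which shares its mice with the other 2 comparisons, 0 of the 21 genes passed the test, where 0.0105% of all 9505 tested genes did (edgeR). None of the 21 had an unadjusted p under 0.05, against 6.02% of all tested genes, and none had groups that did not overlap, against 8.56%. The median log2 fold change was -0.13 over the 21 and -0.01 over all tested genes, and 6 of the 21 were above 0, against 47.9% of all. The median was -0.30 without sham vehicle mouse 3 and 0.03 without sham vehicle mouse 1, so its direction rested on single sham vehicle mice.

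**Figure D4:**
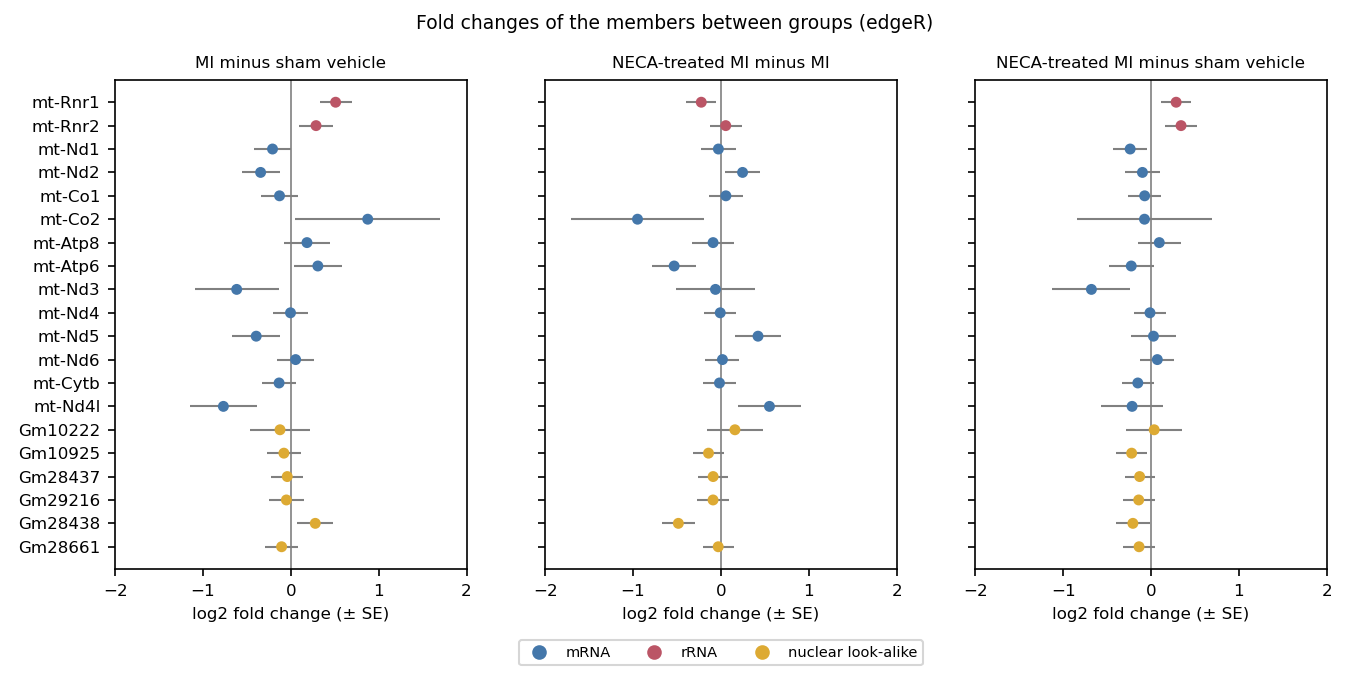
Log2 fold change (horizontal axis, edgeR, bars of 1 SE) of each mitochondrial mRNA, rRNA and nuclear look-alike gene in the 3 comparisons between groups. mt-Co3 is left out because its SE was 2.68 or more, and no gene shown passed the test.

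The repeat libraries of MI mice 2 and 3 show how far a library can move these values in the same mouse. Of the 21 genes 2 differed between the 1st and the 2nd library, against 0.17% of all 14710 tested genes (edgeR with the mouse as a term, 4 libraries and 1 residual degree of freedom). mt-Atp8 had 757 CPM in the 1st and 4410 in the 2nd library of mouse 2, and 1355 and 2643 in mouse 3, a log2 fold change of -1.72 ± 0.33 (edgeR adjusted p = 0.000195). Gm10222 had 541 and 2396 CPM in mouse 2 and 711 and 1109 in mouse 3, a log2 fold change of -1.36 ± 0.32 (edgeR adjusted p = 0.0222). Both genes were lower in both deep libraries, a direction in which 0.129% of all tested genes passed. They are also the shortest of the 21, at 204 and 294 bases, and the part of length was not tested. mt-Nd4l, at 297 bases, moved in opposite directions. It had 331 CPM in the 1st and 1002 in the 2nd library of mouse 2, against 646 and 387 in mouse 3. The sum of mt-Nd4l and Gm10222 gave -1.02 ± 0.32 (edgeR adjusted p = 0.480).

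Several other members moved in opposite directions in the 2 mice. mt-Co3 had 1021 CPM in the 1st and 3195 in the 2nd library of mouse 2, against 370 and 2.08 in mouse 3. mt-Nd3 had 512 and 231 CPM in mouse 2, against 202 and 389 in mouse 3. mt-Nd6 had 9285 and 5592 CPM in mouse 2, against 3726 and 4351 in mouse 3. In mouse 2 the mt-Nd4l and mt-Nd4 pair took 5.89% of the mitochondrial sum in the 1st and 9.36% in the 2nd library, mt-Nd5 2.52% and 3.82%, and mt-Co2 with its copy 14.9% and 10.8%. In mouse 3 the same shares were 8.69% and 8.87%, 2.24% and 2.12%, and 12.6% and 12.2%. The 2 libraries thus lay closer to each other in mouse 3 than in mouse 2 for these transcripts. The whole mitochondrial share was 24.7% in the 2nd and 20.4% in the 1st library of mouse 2, and 17.9% and 16.1% in mouse 3. The look-alikes' share was 14.4% in the 2nd and 17.5% in the 1st library of mouse 2, and 14.1% and 12.7% in mouse 3. MI mouse 3 had the lower mitochondrial share in both kinds of library.

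**Figure D5:**
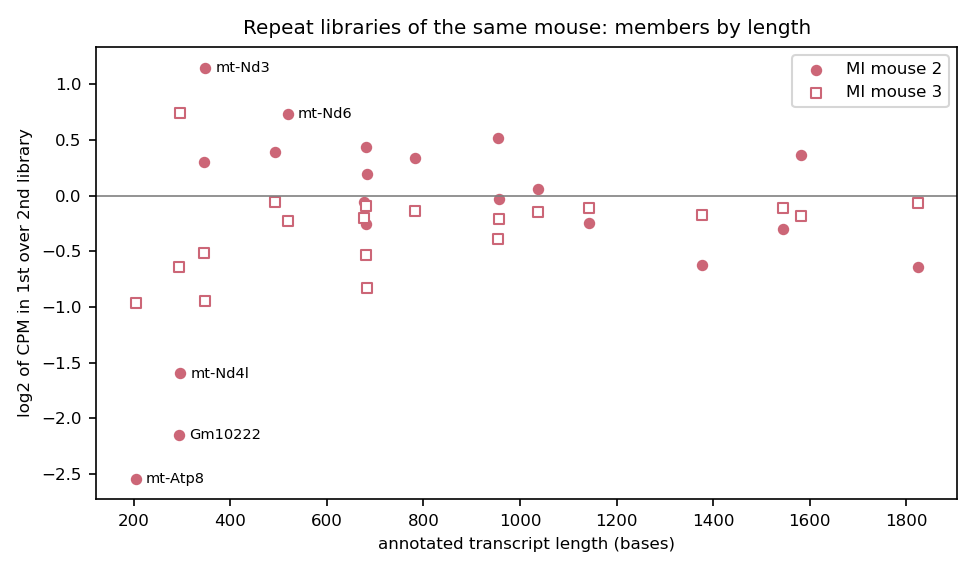
Log2 of the CPM in the 1st over the 2nd library of the same mouse (vertical axis) against the annotated transcript length in bases, with 1 point per gene and mouse. mt-Atp8 and Gm10222, the shortest, lie lowest in mouse 2, and mt-Co3 is left out because its log2 ratios were -1.65 and 7.47. mt-Nd4l, at 297 bases, lies at -1.60 in mouse 2 and 0.74 in mouse 3.

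The order of the genes depended on the unit. By counts the leading genes over the 10 libraries were mt-Co1 with 90167 CPM, Gm28437 with 42459 and Gm28661 with 39318. In TPM, the deposited level per transcript length scaled to 1000000 per library, mt-Atp8 led with 100877 ± 15116 (SD, n = 10), followed by Gm28661 with 73486 ± 2961, Gm28437 with 65350 ± 3087, Gm29216 with 61865 ± 3462 and mt-Co1 with 59703 ± 4404. The last 2 differed by less than their spread, while mt-Atp8 varied most, from 61440 to 117060. mt-Atp8 stood in place 13 of 21 by counts. Its annotated length is 13.2% of that of mt-Co1, whereas its counts and TPM imply an effective length of 1.46% to 2.94% of mt-Co1's. The 43 genes held 51.9% to 62.6% of all TPM in the 10 libraries.

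The nuclear genes that serve the mitochondrial genome were read from lists, and 0 members passed the test in any of the 3 comparisons. Of 18 genes of mitochondrial DNA upkeep and transcription 11 were tested. Their median log2 fold change for MI minus sham vehicle was -0.15, against -0.01 over all tested genes. Values lay above 0 for 3 of the 11, against 49.1% of all tested genes. Without MI mouse 3 the median was -0.11. Polg, the catalytic subunit of the mitochondrial DNA polymerase, had 56.2 ± 2.996 CPM in sham vehicle, 53.5 ± 7.91 in MI and 57.5 ± 4.09 in NECA-treated MI (SD, n = 3, 3 and 4). Tfb2m, a transcription factor of mitochondrial DNA, had 38.3 ± 3.61, 39.8 ± 15.5 and 37.3 ± 3.53 CPM. Of 27 genes of mitochondrial RNA processing, tailing and decay 24 were tested. In the same comparison their median was -0.15, with 7 of the 24 above 0, and without MI mouse 3 it was -0.01. Fastk, the founding member of a family of mitochondrial RNA-binding proteins, had 192 ± 21.1, 147 ± 26.9 and 180 ± 13.5 CPM, with a log2 fold change of -0.38 ± 0.17 for MI minus sham vehicle (edgeR adjusted p = 0.379). Grsf1, which binds mitochondrial RNA in granules, had 132 ± 11.6, 124 ± 35.6 and 117 ± 15.4 CPM.

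All 78 mitochondrial ribosomal protein genes were tested, and their median log2 fold change was -0.18 for MI and -0.26 for NECA-treated MI minus sham vehicle, against -0.01 over all tested genes. Values lay above 0 for 21 and 10 of the 78, against 49.1% and 47.9% of all tested genes, and for 29 and 17 of the 78 with no scaling. With no scaling the medians were -0.10 and -0.19, against 0.07 and 0.05 over all tested genes. With the 1st and 2nd libraries summed, the median for MI was 0.03. Without sham vehicle mouse 3 the medians were -0.28 and -0.37, against 0.01 and 0.0023 over all tested genes. Mrpl42 had 184 ± 32.7, 178 ± 27.3 and 158 ± 13.7 CPM in the order sham vehicle, MI and NECA-treated MI, and Mrpl12 had 166 ± 23.2, 120 ± 28.2 and 128 ± 5.20. Both encode proteins of the large ribosomal subunit.

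Of 81 nuclear-encoded subunits of complexes I, III, IV and V 76 were tested. Their median was -0.10 for MI and -0.13 for NECA-treated MI minus sham vehicle, against -0.01 over all tested genes. Above 0 lay 22 and 6 of the 76, against 49.1% and 47.9% of all tested genes. With no scaling the medians were -0.0039 and -0.05, against 0.07 and 0.05 over all tested genes, and 36 and 18 of the 76 lay above 0. The median for MI was 0.17 with the 1st and 2nd libraries summed. Without sham vehicle mouse 3 the medians were -0.22 and -0.26, against 0.01 and 0.0023 over all tested genes. Atp5b and Atp5a1, subunits of the catalytic part of ATP synthase, had 3940 ± 400 and 3412 ± 537 CPM in sham vehicle, 3666 ± 595 and 2817 ± 728 in MI, and 3860 ± 253 and 3151 ± 121 in NECA-treated MI. The intervals of mean ± SD of these 2 genes overlapped between all groups.

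All 12 regulators of mitochondrial biogenesis were tested. Their median log2 fold change was -0.19 for MI minus sham vehicle and 0.26 for NECA-treated MI minus MI, against -0.01 over all tested genes in each. For NECA-treated MI minus MI 11 of the 12 lay above 0, against 48.6% of all tested genes. Without MI mouse 3 these medians were -0.05 and 0.14, and 8 of the 12 lay above 0. Esrra, a nuclear receptor of energy metabolism, had 112 ± 19.5, 98.9 ± 22.3 and 126 ± 17.6 CPM, and Ppargc1a, a coactivator of mitochondrial biogenesis, had 68.6 ± 6.96, 58.8 ± 23.9 and 66.2 ± 8.26. Neither passed in a comparison, with adjusted p of at least 0.724 by edgeR for MI minus sham vehicle.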

How the data were processed

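Total RNA of mouse myocardium was converted to libraries with a modified CEL-Seq2 protocol that reads 3′ ends, per the labels' protocols. Reads were handled with FastQC 0.11.9, STAR and RSEM on GRCm39, per the submitters' processing notes. Not given in the sources used here are the annotation version, the strand setting and whether molecular identifiers were used. The authors deposited expected counts as whole numbers, and log2(TPM + 1) values that RSEM scaled by effective length, per the file headers and the values. RSEM divides reads among near-identical genes.

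Of 57054 rows, 56647 had a value in every library and were used. CPM is counts per 1000000 counts of a library, and group means ± SD are TMM-scaled CPM for fold changes and for genes of the lists. The test on counts was that of edgeR 4.0.16, run in R 4.3.3 (filterByExpr, TMM, robust quasi-likelihood, two-sided) in 1 fit of 10 libraries, 1 per mouse, with Benjamini-Hochberg adjusted p under 0.05. The code was tested on simulated data. Sums and shares have no test. Alternatives were DESeq2 1.42.0, limma 3.58.1 on log2(TPM + 1), other scalings, no filter, other libraries, copies added to genes by sequence, 2 groups alone, a replicate block and leaving out each mouse. The genes and lists were chosen with earlier results of these data known. Named were all members with a mean of at least 10 CPM and, of each list with no gene past the threshold, the 2 of highest mean CPM. Markers named are those of lists chosen in the same way. A direction is given only where a log2 fold change is larger than its standard error.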

Additional observations from a re-analysis of the deposited data

Results flagged for a closer look

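In 1 of 44 groups of 4 mice that were tested for a sample apart from the rest, the lowest sample was far from the others. mt-Nd4, a complex I subunit, had 28543 CPM in NECA-treated MI mouse 2, and the nearest of the other 3 mice had 30658 CPM, a gap of 0.865 of the group's range, where 0.829 is Dixon's critical value for 4 samples. Chance flags about 1 in 20 groups.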

How the results depend on the processing

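Of the 21 tested genes 0 passed in any of the 3 comparisons between groups, in the main test and under every alternative run, and leaving out each mouse gave 0 to 0 as well. Genes past the threshold over the whole table for MI minus sham vehicle were 7 in the main test, 17 with DESeq2, 191 with no filter, 15 with libraries summed, 0 with limma (901 at an unadjusted p under 0.05), 0 with the 2 groups alone in edgeR (729 unadjusted) and 0 to 50 leaving out a mouse. The 0 was without sham vehicle mouse 2 (858 unadjusted), the 50 without sham vehicle mouse 3, and without MI mouse 3 there was 1. For NECA-treated MI minus MI they were 0 in the main test (577 unadjusted, and 0 with DESeq2), 8 with no filter, 1 with libraries summed, 1 with the 1st libraries in place of the 2nd and 0 to 2 leaving out a mouse. For NECA-treated MI minus sham vehicle they were 1 in the main test, 5 with DESeq2, 4 with no scaling, 2 with totals outside the members, 43 with no filter, 0 with libraries summed (412 unadjusted), 0 with the 1st libraries (408 unadjusted), 0 with limma (475 unadjusted), 7 with the 2 groups alone and 0 to 7 leaving out a mouse. The replicate block gave 8, 0 and 4 genes in the 3 comparisons. Same-numbered mice had correlations of -0.23 to 0.19, inside the range of -0.27 to 0.27 of mice with different numbers. These correlations are of values centred within small groups, so they cannot decide whether same-numbered mice were paired. For the 1st minus the 2nd library 25 genes passed, against 8 with DESeq2. Of the 2 members that passed there, 1 passed with no filter, where Gm10222 had -1.32, and 1 with the copies added to their genes, since Gm10222 is then no gene of its own. mt-Nd3 reversed to 0.21 for MI minus sham vehicle with its copy added. The choice of libraries turned further values: with libraries summed, 11 of 63 member fold changes between groups took the other sign, 3 of them beyond their standard error. These were mt-Atp8 at -0.92 for MI minus sham vehicle and 1.01 for NECA-treated MI minus MI, and mt-Nd4 at 0.26 for NECA-treated MI minus MI. Gm10222 kept its sign but moved to -0.90 and 0.94. The cause of the other moves was not tested.

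As a share of TPM, the mitochondrial genes held 30.8%, 28.0% and 31.2% in sham vehicle, MI and NECA-treated MI, the look-alikes 29.4%, 29.6% and 28.5%, and both 60.1%, 57.6% and 59.7%. The look-alikes' MI mean of counts was 14.5% with the 1st libraries in place of the 2nd and 14.5% with libraries summed. Leaving out a mouse moved the mean share of the mitochondrial genes within 21.6% to 23.9%, 20.3% to 23.6% and 22.3% to 22.8%, that of the look-alikes within 13.1% to 14.5%, 13.7% to 14.2% and 12.9% to 13.1%, and the sum within 34.7% to 38.4%, 34.0% to 37.5% and 35.2% to 35.9%. The tRNA genes had no count in the deep 1st libraries either. A count of 0 allows up to 3.13 CPM in the smallest library, a limit on counts and not on the amount of tRNA.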
